A study of Mus musculus with 2 samples.

Results

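The 40 genes described here are the cell-cycle genes of 2 phase lists, 16 with a known role in S phase and 24 with a known role in G2 phase and mitosis, each matched by its symbol to exactly 1 of the 46983 genes counted. They were measured by droplet single-cell RNA sequencing in pancreatic islet cells of mice aged 9 days, sorted for the tdTomato reporter. The control library came from mice with the genotype Neurod1 Cre/+; Isl1f/+, and the library labelled Isl1CKO from mice with the genotype Neurod1 Cre/+; Isl1f/f. Both libraries therefore carried Cre driven by Neurod1, a gene of endocrine cells, and the control cells can have lost Isl1 from 1 allele. Each library was a pool of 6 samples of its genotype, and actinomycin D, an inhibitor of transcription, was present in the perfusion and trypsin solutions for both. With 1 library per genotype no difference has a replicate check, so no p-value is given, and every interval is an exact 95% interval that covers counting error alone. Transcripts were counted as unique molecular identifiers (UMIs), which tag single molecules. Levels are given as CPM (counts per 1e6), the UMIs of a gene scaled by all UMIs of the same cells. Isl1 stood at 253 CPM in the control library and at 461 CPM in the other. A tag at the 3′ end may lie outside the deleted part, so this value does not check the labels.

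A dividing cell copies its DNA in S phase and separates the copies in mitosis, and its transcripts follow in waves. Genes of DNA replication are transcribed from late G1 under E2F factors. Genes of mitosis are transcribed later, and many are known to carry a CCAAT box and a cell cycle genes homology region (CHR) near the start site. Islet cells of young mice still divide, and beta cells expand mainly by division in this period.

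Promoter windows show how the lists differ in sequence. RefSeq windows of 300 bases (250 before to 50 after the start, build GRCm38.p6) were matched for 34 of the 40 members, 14 of the S list and 20 of the G2/M list. The CHR was searched as TTTGAA, the CCAAT box as CCAAT and the E2F site as TTGGCGC or as TTCCCGC or as TTCGCGC or as TTGCCGC, on both strands, with overlapping matches kept. TTTGAA was present in 15 of 20 G2/M windows (75%) and in 1 of 14 S windows (7.14%), against 18.1% of all 27025 windows. CCAAT was present in 90% of G2/M windows, 71.4% of S windows and 37.9% of all windows. An E2F string was present in 10 of 14 S windows (71.4%), 4 of 20 G2/M windows (20%) and 9.69% of all windows. TTTGAA and CCAAT stood together in 75% of G2/M windows and 7.12% of all windows. Among the 10667 windows of genes with at least 50 UMIs over both libraries, TTTGAA was present in 11.5%, CCAAT in 38.2% and both in 4.74%. An E2F string was present in 17% of them, near the 20% of the G2/M windows. The windows of Ccnb2 (chr9:70421505-70421804, strand -) and Cdc20 (chr4:118437294-118437593, strand -) are shown as G2/M members with both strings. Those of Mcm6 (chr1:128359656-128359955, strand -) and 2810417H13Rik (chr9:65890073-65890372, strand +) are shown as S members with E2F strings. Capitals mark the matched strings.
Ccnb2: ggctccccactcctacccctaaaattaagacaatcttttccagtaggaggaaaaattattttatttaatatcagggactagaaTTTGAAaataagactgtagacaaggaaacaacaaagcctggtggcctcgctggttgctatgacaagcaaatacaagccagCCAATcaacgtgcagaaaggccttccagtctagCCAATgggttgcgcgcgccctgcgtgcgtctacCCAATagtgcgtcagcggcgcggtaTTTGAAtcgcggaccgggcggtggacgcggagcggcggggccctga
Cdc20: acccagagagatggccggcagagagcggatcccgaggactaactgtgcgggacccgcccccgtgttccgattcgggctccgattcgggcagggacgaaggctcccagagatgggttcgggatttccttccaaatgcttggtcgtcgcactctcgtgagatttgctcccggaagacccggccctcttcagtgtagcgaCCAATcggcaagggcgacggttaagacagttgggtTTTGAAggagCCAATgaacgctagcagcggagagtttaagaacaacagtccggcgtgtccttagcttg
Mcm6: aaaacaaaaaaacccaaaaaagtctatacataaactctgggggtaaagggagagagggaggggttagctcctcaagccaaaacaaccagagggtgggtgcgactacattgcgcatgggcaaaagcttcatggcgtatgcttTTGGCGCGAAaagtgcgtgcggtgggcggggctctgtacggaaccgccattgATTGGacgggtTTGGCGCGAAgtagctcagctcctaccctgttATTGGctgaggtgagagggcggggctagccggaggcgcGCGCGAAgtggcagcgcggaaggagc
2810417H13Rik (RefSeq Pclaf): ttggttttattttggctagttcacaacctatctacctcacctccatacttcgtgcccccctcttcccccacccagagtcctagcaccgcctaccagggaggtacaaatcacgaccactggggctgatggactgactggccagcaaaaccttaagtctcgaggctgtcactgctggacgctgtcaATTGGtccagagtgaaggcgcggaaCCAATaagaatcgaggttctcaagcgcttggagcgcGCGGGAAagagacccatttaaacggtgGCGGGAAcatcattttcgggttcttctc
In the Cdc20 window TTTGAA begins 18 bases before the start. The Mcm6 window holds 5 E2F matches and no TTTGAA. A match is a string in this window and not a measured binding site.

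The control library held 2504 cells above the rule's threshold of 6825 UMIs and the Isl1CKO library held 3020, with medians of 22638.5 and 24906.5 UMIs per cell. Cells were sorted into overlapping classes by their own transcripts. They were insulin-high (Ins1 and Ins2 at least 20% of UMIs), glucagon-high (Gcg at least 10%), somatostatin-high (Sst at least 5%), Ttr-high (Ttr at least 5%) and Fev-positive (at least 3 Fev UMIs). The control held 898 insulin-high, 617 glucagon-high and 539 somatostatin-high cells. The Isl1CKO library held 383, 2 and 6 of these, with 1445 Ttr-high and 2035 Fev-positive cells, of which 1031 met both rules. Insulin-high cells carried the beta-cell glucose transporter Slc2a2 at 366 CPM (control) and 318 CPM (Isl1CKO), and control glucagon-high cells carried the alpha-cell factors Irx1 and Irx2 at 152 and 136 CPM. Ttr-high Isl1CKO cells carried Irx1 and Irx2 at 252 and 197 CPM, and this class is called by its rule. Hormones took a median of 36.8% of the UMIs of a control cell and 0.627% of those of an Isl1CKO cell, which lowers the CPM of all other genes in the control.

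Most cells held a UMI of at least 1 member, but few held many G2/M members. No member was counted in 609 control cells (24.3%) and 554 Isl1CKO cells (18.3%). Of 2504 control cells, 2212 had a UMI of at most 1 of the 24 G2/M members, and 71 had 18 or more of them, 30 with all 24. In Isl1CKO 2535 cells had at most 1 and 119 had 18 or more, 42 with all 24. A cell with at least 6 members of a list is called S-rich or G2/M-rich here. That is a range on a count of genes and not a cell type. At the boundary, 15 control and 20 Isl1CKO cells had exactly 5 G2/M members, and 6 and 17 had exactly 6. The control held 134 G2/M-rich cells, or 5.35% (interval 4.5 to 6.31), and Isl1CKO held 202, or 6.69% (5.82 to 7.64). S-rich cells made up 9.11% and 8.58%.

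Each member was then placed in cells classed by the other members alone. Mki67, the nuclear proliferation antigen, had 92.4% of its control UMIs and 90% of its Isl1CKO UMIs in G2/M-rich cells. Ube2c, the ubiquitin-conjugating enzyme of the anaphase-promoting complex, had 97.7% and 95.9%. The replication helicase subunit Mcm4 had 25.2% and 29.7% there, and the sliding clamp Pcna 33.3% and 39.2%. These S members also had UMIs in many cells of neither range, with Pcna at 7.33 CPM and Mcm4 at 6.07 CPM in such control cells against 2.27 CPM for Mki67.

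Of the S list, Rrm2 and 2810417H13Rik had the largest shares of their UMIs in G2/M-rich cells, mostly in cells that were also S-rich. Rrm2, the small subunit of ribonucleotide reductase, had 85.9% of its control UMIs and 95.3% of its Isl1CKO UMIs in G2/M-rich cells. 2810417H13Rik (also Pclaf), a PCNA-binding protein, had 90.1% and 94.7%. Outside the 8 islet hormone genes, Rrm2 stood at 5.56 CPM in control cells that were S-rich alone, 222 CPM in cells rich in both lists and 23.1 CPM in cells that were G2/M-rich alone. Its partner Rrm1, the large subunit, stood at 92.6, 298 and 46 CPM in the same ranges. Clspn of the S list had 80.7% of its control and 90.7% of its Isl1CKO UMIs in G2/M-rich cells. It stood at 35.5, 302 and 6.2 CPM in those control ranges, so a high share can come from cells rich in both lists. In cells S-rich alone, Rrm2 had a UMI in 6.41% and Rrm1 in 64.3%.

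The G2/M list itself split by whether S members were present. Hormones took a median of 29.9% of UMIs in control cells rich in both lists and 60.9% in control cells G2/M-rich alone, so these levels are given outside hormones. Nusap1, a spindle protein, stood at 426 CPM in control cells rich in both lists and at 84.4 CPM in cells G2/M-rich alone, and in Isl1CKO at 332 and 44.4 CPM. Top2a, the topoisomerase that untangles sister DNA, stood at 1364 and 277 CPM in the control and 774 and 110 CPM in Isl1CKO. Aurkb, the kinase of the chromosomal passenger complex, stood at 160 and 37.4 CPM and at 75.7 and 6.76 CPM. Cenpa, the centromeric histone, lay the other way, at 313 and 1000 CPM in the control and 383 and 627 CPM in Isl1CKO. Ccnb2, a mitotic cyclin, did too, at 243 and 646 CPM and at 271 and 432 CPM. Each of these 5 genes, chosen after their values were seen, lay the same way in both libraries. Some other G2/M members did not. Hmmr stood at 371 and 653 CPM in the control but at 328 and 257 CPM in Isl1CKO. Cdc20 stood at 192 and 536 CPM but at 261 and 169 CPM, and Cenpf at 823 and 1114 CPM but at 405 and 237 CPM. Ccnb1, Tpx2, Cenpe, Cdca3 and Ckap2l turned in the same way. The G2/M members not named here kept their direction. UMIs count 1 tag per molecule, so these levels are not divided by transcript length.

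RNA free in droplets was measured in control barcodes of at most 100 UMIs, which held the S members at 89.7 CPM and the G2/M members at 160 CPM, or 56.3% and 50.1% of the level in cells. Control cells of neither range were below that for Ube2c, at 0.565 CPM against 14.4 CPM in those barcodes, for Cenpa, at 1.11 against 18.6 CPM, and for Mki67, at 2.27 against 10.8 CPM. Of the S members named above, Pcna was below its near-empty level of 10.8 CPM in such cells, and Mcm4 was above its level of 3.65 CPM. The lowest Isl1CKO barcode has 4882 UMIs, so the same measure was not made there.

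**Figure D1:**
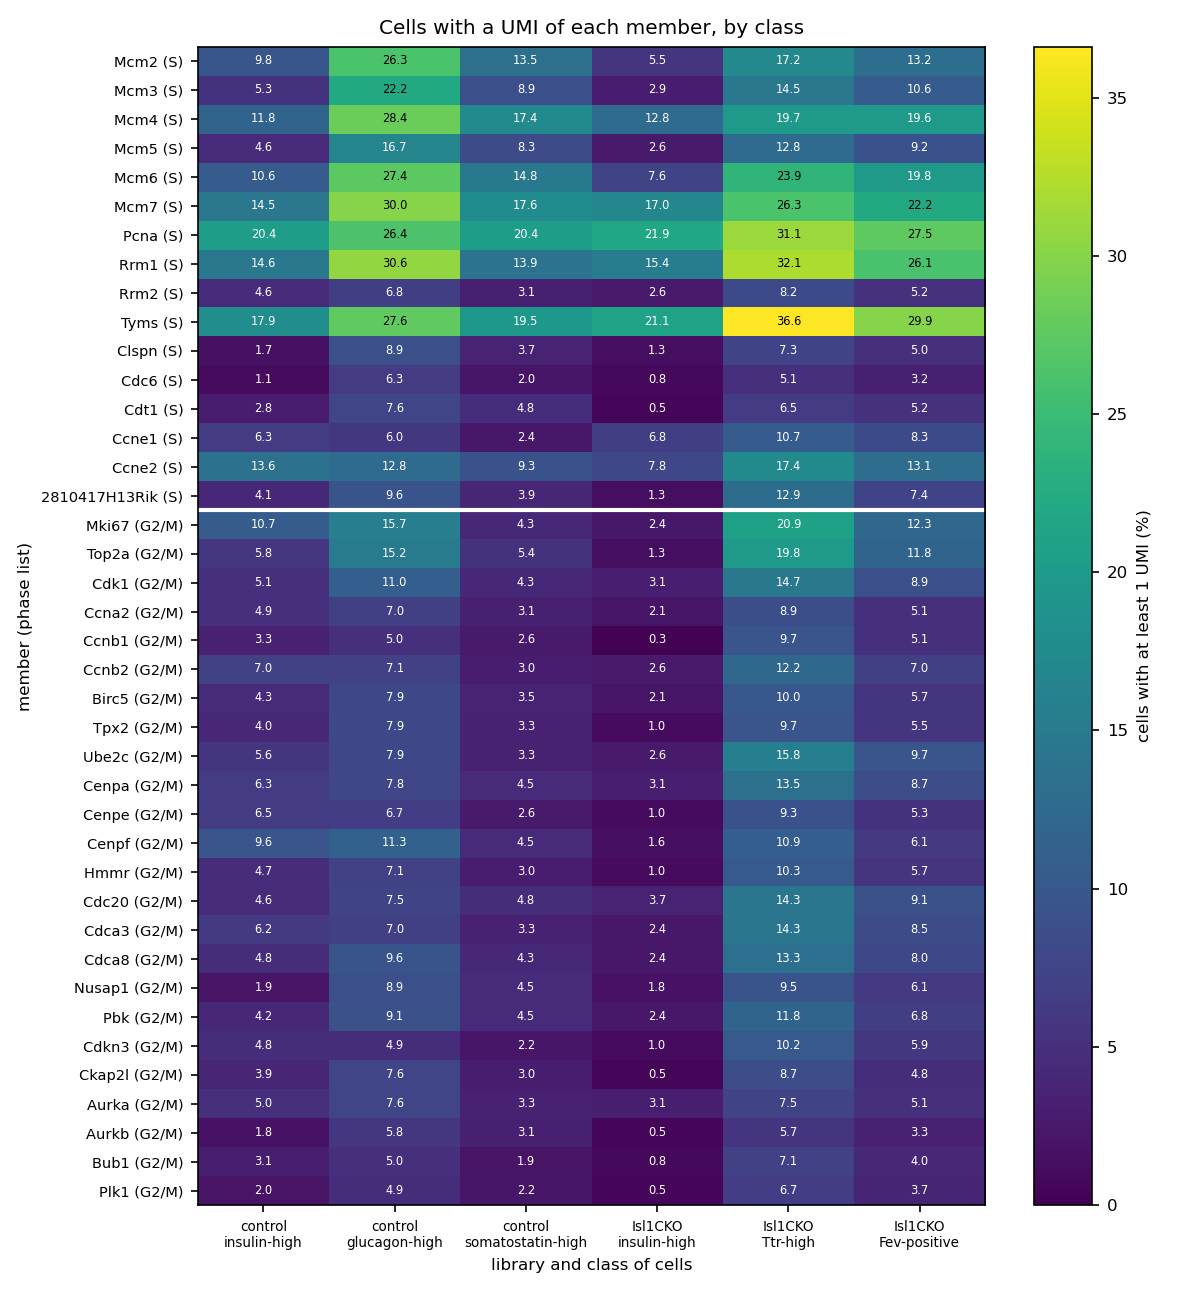
Percentage of cells with at least 1 UMI of each member (rows, S list above the white line, G2/M list below) in 6 classes of cells (columns). Mki67 was counted in 10.7% of control and 2.35% of Isl1CKO insulin-high cells.

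Among the 3 hormone classes of the control the members summed highest in glucagon-high cells. Scaled to UMIs outside hormones, the S members summed to 563 CPM (548 to 579) in glucagon-high, 323 CPM (309 to 338) in somatostatin-high and 171 CPM (164 to 178) in insulin-high cells. The G2/M members summed to 1124 CPM (1102 to 1145), 607 CPM (587 to 627) and 507 CPM (495 to 519) in that order of classes. S-rich cells made up 18% (15 to 21.3) of glucagon-high, 5.94% (4.1 to 8.28) of somatostatin-high and 3.79% (2.64 to 5.25) of insulin-high cells, so the intervals of the latter classes overlap. G2/M-rich cells made up 8.1% (6.07 to 10.5), 3.53% (2.14 to 5.45) and 5.35% (3.97 to 7.02), and the insulin-high interval overlaps both others. The 113 Ttr-high control cells, of which 101 were also glucagon-high, had an S sum of 519 CPM (487 to 552) and a higher G2/M sum, 1433 CPM (1380 to 1488), than the glucagon-high class. Glucagon-high cells were 24.6% of control cells and held 48.7% of the S-rich cells. Of 56 control cells with markers of mesenchymal, endothelial, leukocyte or Schwann cells, 5 were G2/M-rich, and 53 of the 56 were in none of the classes.

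On the same scale outside hormones, the 3 most counted S members lay in the order of the S sum. Tyms stood at 72.3 CPM (66.9 to 78) in glucagon-high, 45.7 CPM (40.4 to 51.6) in somatostatin-high and 20 CPM (17.7 to 22.6) in insulin-high cells. Rrm1 stood at 58.5, 23.4 and 16.5 CPM and 2810417H13Rik at 53.7, 31.6 and 13.2 CPM. Top2a at 154, 66.2 and 19.6 CPM and Ube2c at 99.4, 43.7 and 21.6 CPM lay in that order too. Mki67 did not, with 125 CPM (118 to 132) in glucagon-high, 48.2 CPM (42.7 to 54.2) in somatostatin-high and 65.5 CPM (61.2 to 70) in insulin-high cells. It had a UMI in 15.7%, 4.27% and 10.7% of these cells, at median depths of 21125, 14481 and 48339.5 UMIs. In Isl1CKO, Ttr-high cells held Tyms at 53.9, Rrm1 at 29.6, 2810417H13Rik at 50.8, Top2a at 71.5, Ube2c at 73.1 and Mki67 at 46.3 CPM outside hormones. Isl1CKO insulin-high cells held them at 18, 12.3, 4.65, 11.2, 20.7 and 7.35 CPM, each below the Ttr-high level.

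**Figure D2:**
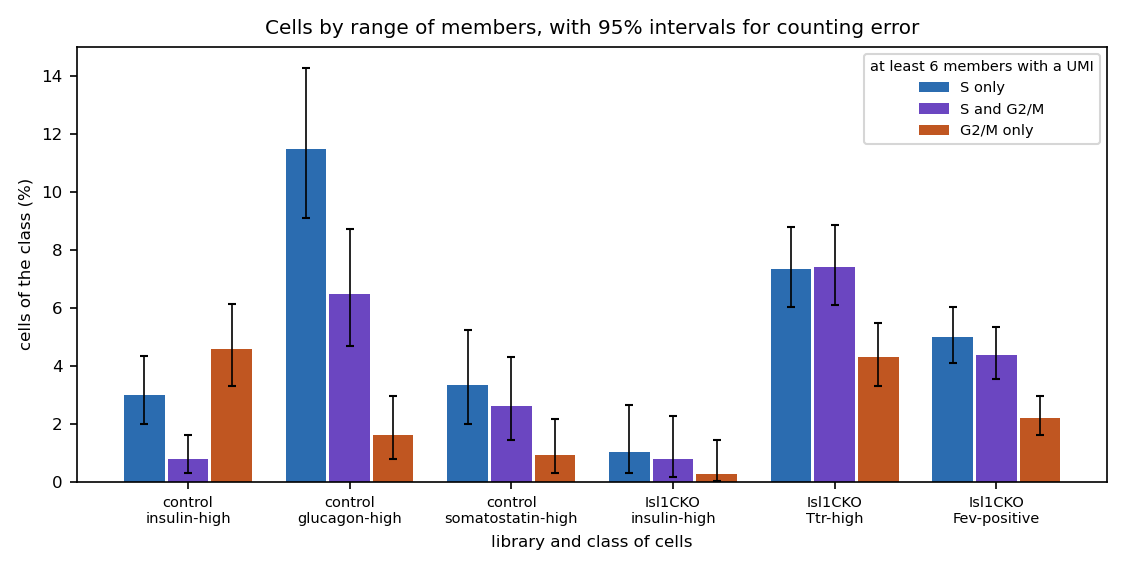
Percentage of the cells of each class (bars) that had at least 6 S members alone, at least 6 of both lists, or at least 6 G2/M members alone, with exact 95% binomial intervals for counting error. In control insulin-high cells the G2/M-only bar (4.57%) is above the bar for both lists (0.78%), and in control glucagon-high cells it is below (1.62% against 6.48%).

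G2/M-rich insulin-high cells of the control had another mix of members than G2/M-rich glucagon-high cells. Of 48 G2/M-rich insulin-high cells, 7 were also S-rich, or 14.6% (6.07 to 27.8). Of 50 G2/M-rich glucagon-high cells 40 were, or 80% (66.3 to 90), and of 19 somatostatin-high cells 14 were, or 73.7% (48.8 to 90.9). The median G2/M-rich cell had 2 S members in the insulin-high class and 12 in the other two. The 4 G2/M-rich insulin-high cells of Isl1CKO are too few to settle whether they share this mix. Of them 3 were also S-rich (75%, 19.4 to 99.4), an interval that overlaps that of the control, and 1 of these had exactly 6 S members. Their median was 10 S members. They had 1.74 Top2a UMIs (1.17 to 2.6) per Mki67 UMI, but 1 cell held 59 of their 73 Top2a UMIs. Median depth outside hormones in the control was 15710.5 UMIs in the insulin-high, 19501.5 in the glucagon-high and 15813 in the somatostatin-high G2/M-rich cell. The S members together stood at 950 CPM outside hormones in the insulin-high and 2775 CPM in the glucagon-high G2/M-rich cells, while the G2/M members stood at 7724 and 9977 CPM.

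**Figure D3:**
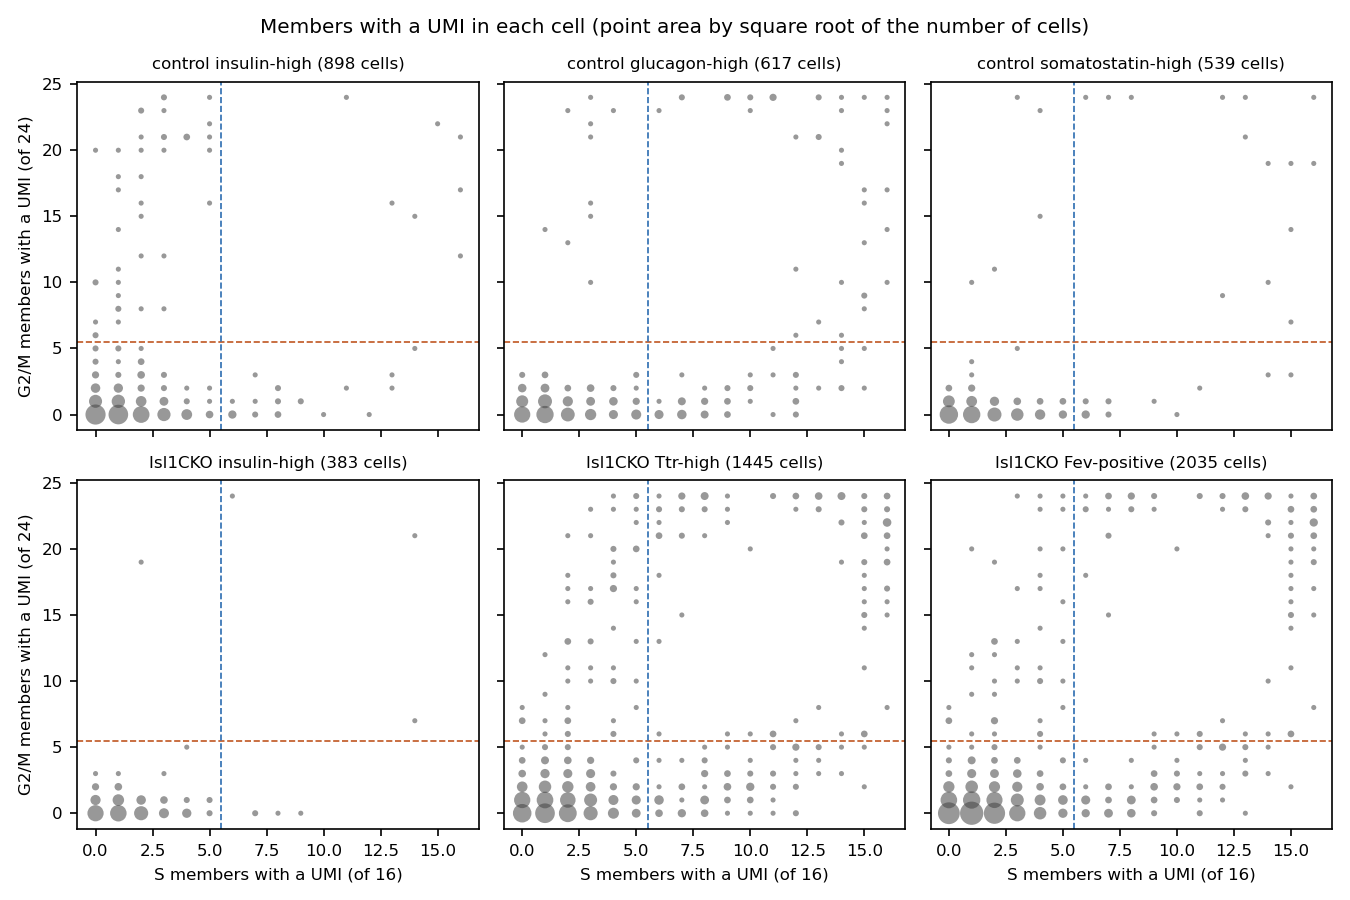
Number of S members (of 16, horizontal axis) and G2/M members (of 24, vertical axis) with a UMI in each cell of 6 classes, with point area by the square root of the number of cells and dashed lines at the boundary of 6 members. The upper right of the control insulin-high panel holds 7 cells and that of the control glucagon-high panel 40.

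The same contrast ran within the G2/M list. In G2/M-rich cells Mki67 stood at 961 CPM outside hormones in the insulin-high class and 1090 CPM in the glucagon-high class, and it was counted in 97.9% and 100% of them. Top2a stood at 289 and 1329 CPM. There were 0.3 Top2a UMIs (0.259 to 0.348) per Mki67 UMI in the insulin-high, 1.22 (1.12 to 1.32) in the glucagon-high and 1.37 (1.16 to 1.6) in the somatostatin-high cells. Nusap1 stood at 92.5 and 427 CPM, and Cdk1, the kinase that starts mitosis, at 156 and 553 CPM. Hmmr, a spindle protein, was higher in the insulin-high cells, at 617 against 441 CPM. So were Cdc20, the activator of the anaphase-promoting complex, at 442 against 238 CPM and Cdkn3, a phosphatase of cyclin-dependent kinases, at 206 against 110 CPM. Cenpa at 751 against 450 CPM and Ccnb2 at 505 against 318 CPM were higher too. Cenpe, Ckap2l and Tpx2 were the other members above their glucagon-high level, so 8 of 24 G2/M members and none of 16 S members were higher. Of the 8, Ckap2l at 239 (206 to 275) against 222 CPM (194 to 253) and Tpx2 at 297 (261 to 337) against 261 CPM (231 to 295) had overlapping intervals. The genes of this paragraph were chosen after their values were seen. Top2a and Nusap1 were lower and Cenpa and Ccnb2 higher, as they were in cells G2/M-rich alone against cells rich in both lists, and 41 of the 63 control cells G2/M-rich alone are insulin-high, so the comparisons share cells.

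The pattern was in cells of high insulin share. Among control cells outside the glucagon and somatostatin rules, 41 with an insulin share of at least 50% were G2/M-rich, of which 2 were also S-rich. Of the 5 such cells with a share from 20% to 50%, 4 were. Of 18 with a share below 1%, 11 were. Among the 7 insulin-high cells rich in both lists, Gcg took 6.25%, 7.64%, 8.27% and 11.5% of UMIs in 4 and at most 0.029% in 3, and Scrublet called none of the 7 a doublet. Whether 2 cells shared a droplet there was not tested further.

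**Figure D4:**
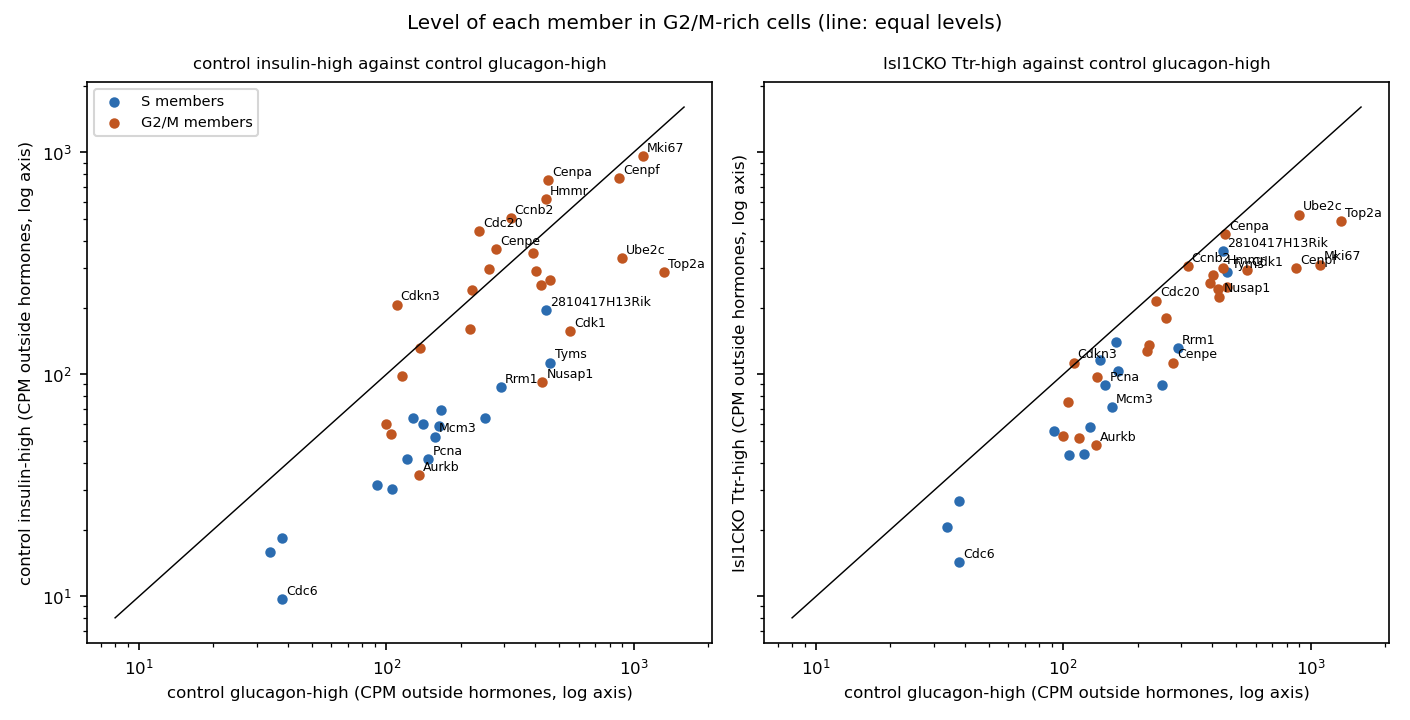
Level of each member in G2/M-rich cells, in CPM outside hormones on log axes, for control insulin-high (left) and Isl1CKO Ttr-high cells (right) against control glucagon-high cells, with a line at equal levels. On the left Cenpa, Ccnb2, Cdc20 and Cdkn3 lie above the line and Top2a, Cdk1, Nusap1 and the S members below it.

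In Isl1CKO the members sat mainly in Ttr-high cells. That class was 47.8% of cells and held 83.7% of the G2/M-rich and 82.2% of the S-rich cells. Its G2/M-rich share was 11.7% (10.1 to 13.5), against 6.58% (5.55 to 7.75) of Fev-positive cells. Fev is a factor of endocrine precursors. Of Ttr-high cells with at least 3 Fev UMIs 10.9% (9.03 to 12.9) were G2/M-rich, and of those with fewer 13.8% (10.6 to 17.5), with overlapping intervals. Fev-positive cells that were not Ttr-high had 2.19% (1.38 to 3.3), at a median depth of 17618.5 UMIs against 30047 for cells meeting both rules. With every cell thinned (its UMIs drawn at random) to 4000 UMIs these shares were 6.69% (5.24 to 8.39), 11.1% (8.25 to 14.5) and 1.69% (0.989 to 2.7), so the last group was lowest at equal depth too.

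Ttr-high Isl1CKO and glucagon-high control cells differ in rule and genotype and are set side by side. Their G2/M-rich shares were 11.7% and 8.1% over all UMIs. With each cell thinned to 4000 UMIs they were 7.96% (6.61 to 9.48) and 6.16% (4.39 to 8.36), with overlapping intervals. With hormone UMIs dropped and each cell thinned to 2000 UMIs they were 6.16% (4.98 to 7.53) and 6.32% (4.53 to 8.54). The difference over all UMIs was thus not seen at equal depth outside hormones. Within G2/M-rich cells the Ttr-high class had 1.58 Top2a UMIs (1.49 to 1.67) per Mki67 UMI, and 63.3% (55.6 to 70.6) of them were also S-rich. The G2/M members together stood at 5421 CPM outside hormones there against 9977 CPM in the glucagon-high cells. Median depth outside hormones was 32989 against 19501.5 UMIs, and a cell held on average 186 against 200 G2/M UMIs. Mki67 stood at 312 against 1090 CPM outside hormones, and Cenpf, a kinetochore protein, at 300 against 877 CPM. Cenpa differed less on this scale, at 429 against 450 CPM.

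Over all cells, the libraries held the members at similar levels relative to other genes. Ratios of CPM (Isl1CKO over control) were divided by the median ratio of the genes compared, 0.58 on the log2 scale. A gene was compared if the library of higher CPM held 50 or more of its UMIs. None of the 40 members was past 2-fold in either direction, where 5.21% of 14420 genes were higher and 6.82% lower by that measure. The S members went from 159 to 232 CPM, a relative log2 ratio of -0.04 (-0.07 to -0.00), and the G2/M members from 318 to 505 CPM, or 0.09 (0.06 to 0.11). Scaled to UMIs outside the hormones without that centring, the G2/M ratio turned to -0.24 and the S ratio was -0.37, with Cdc6 at -1.15 and Cenpf at -1.02. The G2/M ratio was -0.03 as a mean of CPM per cell and -0.07 after thinning to 4000 UMIs, so its direction depends on the scale. With hormones dropped and cells thinned to 2000 UMIs, 3.56% of control and 3.61% of Isl1CKO cells were G2/M-rich. S-rich cells were then 1.84% (1.35 to 2.45) of control and 0.695% (0.431 to 1.06) of Isl1CKO cells. Thinned to 4000 UMIs with hormones kept, S-rich cells were 2.16% (1.62 to 2.8) and 2.52% (1.99 to 3.14), so this order depends on the scale too.

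By role, members fell on both sides of the median gene. The 6 MCM subunits of the replicative helicase summed to a relative log2 ratio of -0.33 (-0.39 to -0.28), and origin licensing factors Cdc6 and Cdt1 to -0.63 (-0.85 to -0.42). Cdc6, which loads the helicase, went from 2.19 to 1.86 CPM, a relative log2 ratio of -0.82 (-1.15 to -0.48), the lowest of the 40. The genes of nucleotide supply summed to 0.29 (0.23 to 0.36). Tyms, thymidylate synthase, went from 20.1 to 37.8 CPM (0.33, 0.24 to 0.42), Rrm1 from 14.3 to 22.6 CPM (0.08, -0.03 to 0.19) and Rrm2 from 5.29 to 12.3 CPM (0.64, 0.47 to 0.81). Thinned to 4000 UMIs, Tyms turned to -0.03 and Rrm1 to -0.10, and Rrm1 was also below 0 outside the hormones (-0.25), as a mean of CPM per cell (-0.06) and thinned to 2000 UMIs (-0.10). 2810417H13Rik went from 13.5 to 31.5 CPM, also at 0.64 (0.53 to 0.75). Within the S list, 6 members lay above and 10 below the median gene.

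In the G2/M list, 17 members lay above the median gene and 7 below. Ube2c had the highest value, from 23.7 to 50 CPM and 0.5 (0.42 to 0.58) on the relative log2 scale. Top2a lay at 0.00 (-0.07 to 0.08), from 31.5 to 47.1 CPM. The cyclins and Cdk1 summed to 0.32 (0.25 to 0.38). Mki67 went from 34 to 32.2 CPM (-0.66, -0.74 to -0.58), Cenpf from 32.2 to 29.9 CPM (-0.68, -0.77 to -0.6) and the kinetochore motor Cenpe from 10.8 to 11 CPM (-0.55, -0.69 to -0.41). These 3 had the longest transcripts of the 40, with 10061, 11130 and 7910 bases in GENCODE M21. Over the 40 members the ratio and the transcript length had a Spearman correlation of -0.42, and over 14366 genes -0.22. Genes of at least 6000 bases had a median of -0.15 and those below 1000 bases of 0.23, and the part of length in the members' values was not tested.

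In insulin-high cells, most G2/M members were lower in Isl1CKO. Of the 34 members that passed the minimum of 50 UMIs, 17 of 21 G2/M members and 6 of 13 S members were at least 2-fold lower than the median gene, against 4.73% of 10080 genes. None was 2-fold or more higher, against 4.97%. The other 6 members (Cdc6, Cdt1, Ccne1, Nusap1, Aurkb and Plk1) had under 50 UMIs in the library of higher CPM. For Nusap1, with 80 control and 31 Isl1CKO UMIs, and Ccne1, with 74 and 32, that library was Isl1CKO. This class held 42777752 UMIs in the control and 14680729 in Isl1CKO. Weakly counted members therefore passed the minimum more easily when lower in Isl1CKO, which favours the count of lower members. The median relative log2 ratio was -2.29 for the G2/M and -0.97 for the S members compared. The G2/M members summed to 158 CPM in the control and 59.7 CPM in Isl1CKO, a relative log2 ratio of -1.81 (-1.92 to -1.71). This median gene lay at 0.41 before centring. The S members summed to 53.2 and 49.7 CPM, or -0.51 (-0.63 to -0.39). The S ratio turned to 0.25 with hormones dropped and cells thinned to 2000 UMIs. By role, the centromere and kinetochore genes summed to -2.30 (-2.55 to -2.06), the spindle proteins to -2.22 (-2.52 to -1.92), the cyclins and Cdk1 to -1.45 (-1.72 to -1.19) and the MCM subunits to -0.59 (-0.79 to -0.40).

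Mki67 had 871 UMIs in 96 of 898 control and 49 UMIs in 9 of 383 Isl1CKO insulin-high cells, 20.4 and 3.34 CPM, a relative log2 ratio of -3.02 (-3.47 to -2.61). Its share of cells with a UMI was 10.7% (8.75 to 12.9) and 2.35% (1.08 to 4.41). Cenpe had 329 and 16 UMIs (-3.23, -4.06 to -2.51) and Hmmr 511 and 32 (-2.87, -3.43 to -2.35). The mitotic cyclins Ccnb1 and Ccnb2 lay at -2.37 and -1.98. The highest values were those of Ube2c (0.07, -0.23 to 0.37), Pcna (-0.00, -0.35 to 0.34) and Tyms (-0.02, -0.34 to 0.3). Pcna was counted in 20.4% and 21.9% of cells and Tyms in 17.9% and 21.1%. In near-empty control barcodes Pcna stood at 10.8 CPM and Tyms at 18.6 CPM, above their 5.33 and 6.22 CPM in control insulin-high cells. Some members that were lower in Isl1CKO, such as Birc5, Ccnb1 and Pbk, were also below their near-empty level in these control cells. Mki67, at 20.4 CPM, was above its near-empty level of 10.8 CPM. Free RNA was not subtracted, so the shares of Pcna and Tyms are not read as expression. Its part in the ratios of this class was not tested.

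The Isl1CKO value rested on few cells. G2/M-rich cells were 48 of 898 (5.35%, 3.97 to 7.02) in the control and 4 of 383 (1.04%, 0.285 to 2.65) in Isl1CKO. With hormones dropped and cells thinned to 2000 UMIs the shares were 3.35% (2.27 to 4.75) and 0.522% (0.0633 to 1.87). A single Isl1CKO cell held 585 of the 876 G2/M UMIs of its class (66.8%), among them 120 of 138 Ube2c and 59 of 75 Top2a UMIs. Without it the G2/M sum lay at -3.4, Ube2c at -2.86 and Top2a at -2.89. Without the 8 control insulin-high cells that also met another hormone rule the sum was -1.68. Doubling the class thresholds gave -4.67, but left out most of the 4 Isl1CKO G2/M-rich cells, among them the cell of 585 G2/M UMIs. The 3 rich in both lists had a median insulin share of 32.8%, and the other had 39%. In the control, 41 G2/M-rich cells outside the other hormone rules had a share of at least 50%. Insulin-high cells that were not G2/M-rich held the G2/M members at 31.7 CPM outside hormones in the control and 16.6 CPM in Isl1CKO. In the control, 6343 of the 6739 G2/M UMIs were in the 48 G2/M-rich cells.

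**Figure D5:**
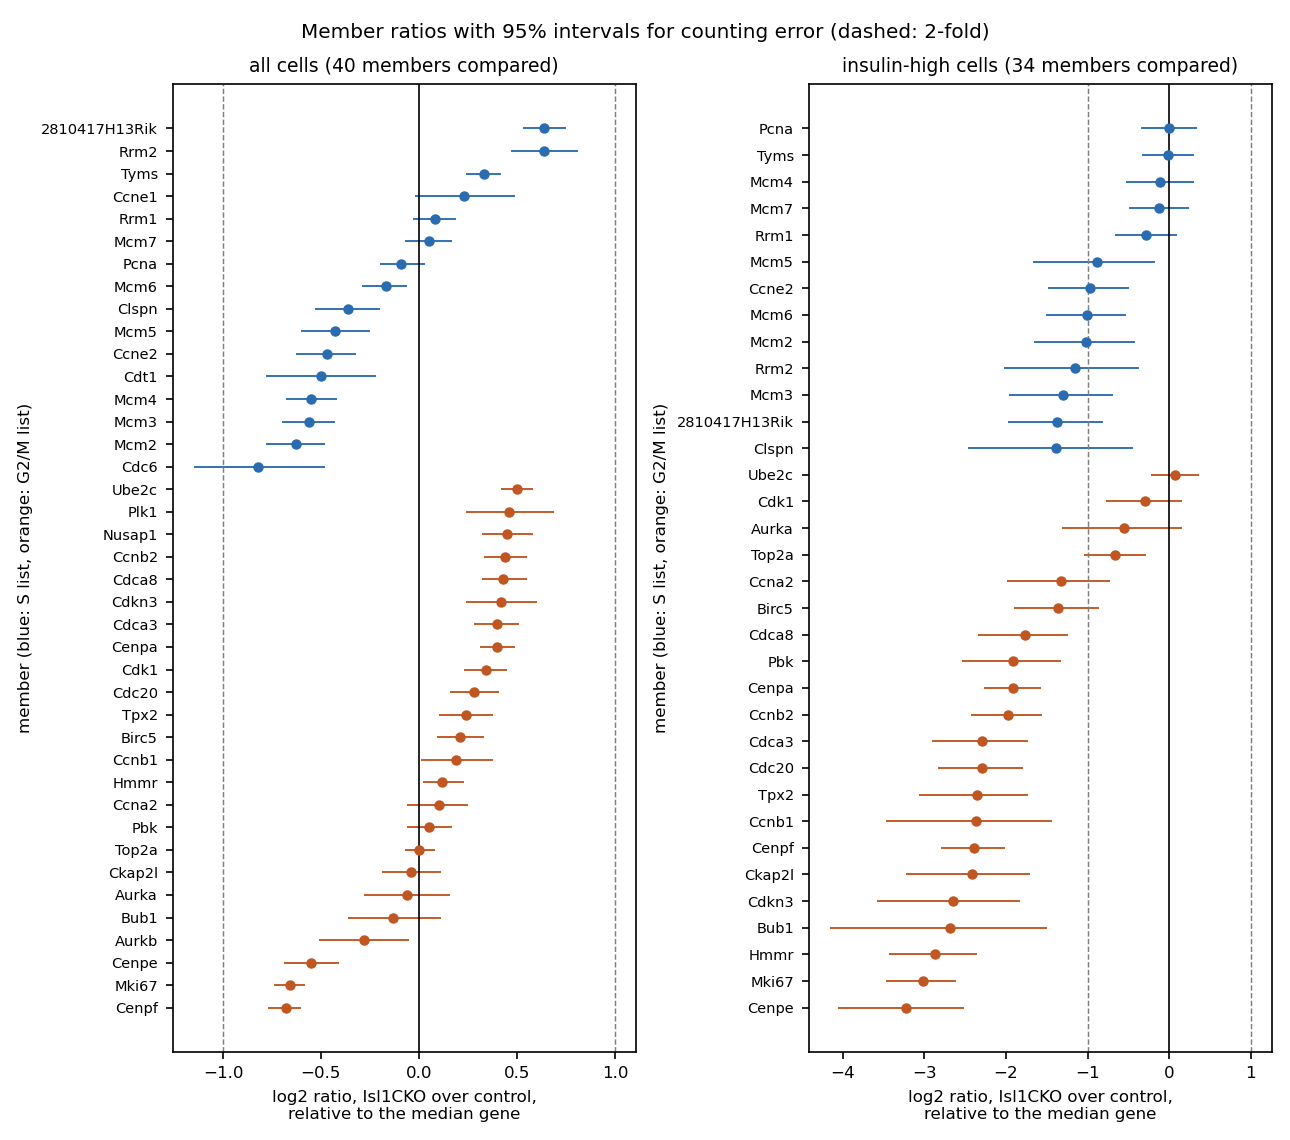
Log2 ratio of CPM, Isl1CKO over control, relative to the median gene, for each member compared in all cells (left) and insulin-high cells (right), with exact 95% intervals for counting error, S members in blue and G2/M members in orange and dashed lines at 2-fold. Over all cells all points lie within 2-fold, and in insulin-high cells Cenpe, Mki67 and Hmmr lie lowest.

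Other cell-cycle genes were counted by the same rule. Over all cells 0 of 34 other S-phase and 0 of 48 other G2/M genes were past 2-fold, where 5.21% of 14420 genes were higher and 6.82% lower. Among 7 inhibitors of cyclin-dependent kinases 1 was, Cdkn2a, at 47 and 185 UMIs (1.29, 0.82 to 1.79). In insulin-high cells 20 of 31 other G2/M genes and 4 of 21 other S-phase genes were 2-fold or more lower, against 4.73% of 10080 genes. There 1 G2/M gene, Cit, was higher (1.29), against 4.97%. The minimum of 50 UMIs favours the count of lower genes here too. Wee1, with 65 control and 40 Isl1CKO UMIs (0.43), was not compared. Ect2, which directs the cleavage furrow, had the lowest value of the G2/M genes (-3.00, -4.48 to -1.83), with 105 and 6 UMIs, and Kif20a, a kinesin of cytokinesis, followed (-2.71). Of 6 inhibitors compared, Cdkn1c was higher (1.52, 1.29 to 1.76) at 6.15 and 23.5 CPM. Cdkn1a, the p53 target p21, was lower (-1.47, -1.73 to -1.23) at 22 and 10.6 CPM, as was Cdkn2c (-1.02, -1.66 to -0.42). Of 9 E2F, pocket and late-cycle regulators compared there, 1 was past 2-fold, E2f3, which was higher at 45 and 59 UMIs (1.52, 0.94 to 2.11), and over all cells 0 of 14 were. Over all cells Cdkn1a lay at 0.74, from 33.8 to 84.3 CPM. No G1 cyclin or kinase passed 2-fold, of 4 compared in insulin-high cells and 6 over all cells.

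Genes outside the lists that varied most like the number of G2/M members detected in a cell included Stmn1, a microtubule regulator, with a Pearson correlation of 0.84 over 2504 control and 0.86 over 3020 Isl1CKO cells, and Racgap1 with 0.84 and 0.81. For the number of S members they included Hells, a chromatin remodeller, with 0.78 and 0.73, and the DNA ligase Lig1 with 0.69 and 0.71. Points share the library and cell depth, so these are descriptions.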

How the data were processed

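Counts of unique molecular identifiers (UMIs) per gene and barcode were used as deposited by the authors, made from 10x Chromium 3′ v3.1 libraries per the labels' protocols. STARsolo, STAR 2.7.3a, Seurat 4.3.0.1 and GRCm38.p6 are named in the submitters' processing notes, without their settings. The control file lists 6794880 barcodes and the Isl1CKO file 3020, so the deposited files differ in filtering. Control cells were barcodes of at least 6825 UMIs, 1/10 of the 99th percentile of the top 3000, and all Isl1CKO barcodes were kept. Called cells held 72548173 control and 78068592 Isl1CKO UMIs, and 4 barcodes occurred in both. No doublets were removed. Scrublet called 22 control and 8 Isl1CKO cells (0.879% and 0.265%), which were removed as an alternative.

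Members and lists were chosen with earlier results of these data known. UMIs were summed per library and class. CPM ratios carry exact conditional binomial, sums exact Poisson and shares Clopper-Pearson intervals at 95%, which cover counting error only. A gene without a UMI was set to 3 UMIs. Ratios were computed on the whole table of genes compared (50 or more UMIs in the library of higher CPM), relative to the median gene. No test was run, since each genotype has 1 library. Full values are given for the 3 members per phase with the most UMIs, Mki67, and the 3 highest and lowest ratios per comparison. Of other genes, the 2 highest or lowest of a list are named. Others were chosen after their values were seen. In the placement of a member, the cell was classed without that member. For correlations, counts were scaled to 10000 UMIs per cell. The ratio and thinning steps were tested on simulated data. Some members overlap a gene on the opposite strand (Mcm7, Ccne2, 2810417H13Rik, Ccna2, Cdc20, Cdca8, Nusap1), and the annotation release and the use of strand in counting are not given in the sources used here. Promoter windows are from RefSeq, and gene models from GENCODE M21. Software was scanpy 1.11.5, pandas 2.3.3, scipy 1.17.1, numpy 2.4.6 and matplotlib 3.10.9 under Python 3.11.15.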

Additional observations from a re-analysis of the deposited data

Results flagged for a closer look

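Members were counted in control barcodes that no comparison used. Barcodes of at most 100 UMIs held 467 UMIs of the S members and 831 UMIs of the G2/M members, above the 3 UMIs that a count of 0 allows. The 872 control barcodes from 1000 UMIs up to the threshold held 373 UMIs of the S members and 753 UMIs of the G2/M members, or 170 and 343 CPM. Of these barcodes 14 were G2/M-rich, or 1.61% (0.88 to 2.68), and their median mitochondrial share was 20.4%.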

How the results depend on the processing

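No paired analysis was possible because each genotype has 1 library, and leaving out a replicate was not possible for the same reason. Of 159 values recomputed under 14 alternatives, 116 stayed within the interval of the reported value or within 1.5 times a count. Among 209 recomputed ratios of single named members, 12 changed sign and 8 crossed 2-fold. Removing cells that met more than 1 hormone rule gave G2/M sums of 0.12 in all and -1.68 in insulin-high cells, and removing cells with non-endocrine markers gave 0.11 in all cells. Scaling to UMIs outside the hormones without centring put 2 members at least 2-fold lower in all cells, with S and G2/M sums of -0.37 and -0.24 there and -0.64 and -1.95 in insulin-high cells. The mean of CPM per cell put 1 member lower, with S and G2/M sums of -0.28 and -0.03 in all cells and an S sum of -0.37 in insulin-high cells. Thinned to 4000 UMIs, the S and G2/M sums were -0.33 and -0.07 in all and -0.30 and -1.97 in insulin-high cells, where 4 members were lower in place of 23, since thinning leaves fewer members with 50 UMIs. G2/M-rich shares were then 3.39% and 4.67% of control and Isl1CKO cells, 2.9% of control insulin-high, 7.96% of Ttr-high and 4.23% of Fev-positive cells. With hormones dropped and 2000 UMIs per cell, 2 members were lower in all cells and 5 in insulin-high cells, the S and G2/M sums were -0.24 and -0.07 in all cells, and the insulin-high S sum was 0.25. The shares were then 3.56% and 3.61% over all cells, 3.35% of control insulin-high, 6.16% of Ttr-high and 3.29% of Fev-positive cells. Doubled class thresholds, which left out the Isl1CKO insulin-high cell with the most G2/M UMIs, gave an insulin-high G2/M sum of -4.67. The shares were then 8.68% for Ttr-high and 4.82% for Fev-positive cells. Calling cells G2/M-rich from 4 members gave 6.39% and 8.31% over all cells, 14.7% for Ttr-high and 8.3% for Fev-positive cells, and from 8 members 5.7% over Isl1CKO cells, 10% for Ttr-high and 5.5% for Fev-positive cells. Leaving out the Isl1CKO insulin-high cell with the most G2/M UMIs, chosen after seeing the data, gave an insulin-high G2/M sum of -3.40. The cause of the other shifts was not tested. Depth limits the insulin-high comparison to 34 members.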
